A study of Homo sapiens with 5 samples.

Results

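The genes described here encode the human histones, both the replication-dependent histones of the 4 HIST clusters and the variant histones. They were chosen by name as protein-coding genes of the GENCODE 29 annotation whose symbol begins with HIST1H, HIST2H, HIST3H, HIST4H, H2AF or H3F3, with H1F0 and H1FX added. The rule gave 85 genes. Of these, 42 were found by Ensembl identifier among the 31029 genes listed for both cell lines, and they comprised 31 of 71 replication-dependent genes and 11 of 14 variant genes. The other 43 genes, 40 of them replication-dependent, had no GENCODE 29 identifier among those of the files, which were made on an older genome build, and were not analysed here. Every sum and share below is therefore over the matched genes.

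The study compared BPTF silencing in melanoma and melanocyte cells. BPTF is the largest subunit of the nucleosome remodelling factor NURF. The samples are labelled total RNA, depleted of ribosomal RNA and treated with duplex-specific nuclease, whereas the series text speaks of mRNA profiles. The analysed libraries were 2 replicates of 501Mel shBPTF and 3 replicates of Hermes 3A shBPTF. 501Mel is a line from a human melanoma, and Hermes 3A is an immortalized human melanocyte line. Both carried a lentiviral shRNA against BPTF and had passed through puromycin selection, so silencing of BPTF was a shared treatment of all 5 libraries. The medium of the melanocytes also contained the phorbol ester TPA, cholera toxin, stem cell factor and endothelin. Each group is a single line, so that line, transformed state, medium, depth of knockdown and response to the knockdown cannot be told apart. The genes listed for the lines also differ, so any difference in annotation between the counting runs cannot be told apart from the line.

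Histones H2A, H2B, H3 and H4 form the core of the nucleosome, and the linker histone H1 binds the DNA that enters and leaves it. Replication-dependent histone genes lie in clusters, carry almost no introns and are transcribed in S phase, when newly made DNA needs new nucleosomes. Most of their mRNAs end in a conserved stem-loop in place of a poly(A) tail, whereas variant histone genes lie alone, give polyadenylated mRNAs and are expressed throughout the cell cycle.

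The libraries held between 30073071 and 43032311 counts, where 3 counts corresponded to 0.0697 to 0.0998 CPM (counts scaled to the total of the library). Hermes 3A replicate 1 stood apart from its group, with a chi-square per gene of 96.1 against replicate 2 and 101 against replicate 3, where these latter libraries differed by 21.5. The 501Mel replicates differed by 72.9. All 7 melanocyte markers were detected in both lines and summed to 12718 and 19661 CPM in 501Mel and to 31651 to 32728 CPM in Hermes 3A. SOX10, PMEL, MLANA and TYR were called lower in 501Mel, DCT was called higher, and MITF and TYRP1 were not called. Among the fibroblast markers COL1A2 was at 0.0697 and 0.106 CPM in 501Mel and at 69.5, 180 and 187 CPM in Hermes 3A, while the other 5 of the list did not exceed 8.34 CPM in any library and none of them was called. BPTF itself was at 65.8 and 57.8 CPM in 501Mel and at 45.8, 51.6 and 54.1 CPM in Hermes 3A (log2 fold change 0.23 ± 0.14 SE, adjusted p = 0.211 by edgeR). Libraries without the shRNA were not analysed here, so these values do not check the knockdown.

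Replication-dependent histone genes had fewer reads in 501Mel cells than in Hermes 3A cells. The 31 genes summed to 38.4 and 43.0 CPM in the 501Mel libraries and to 76.8, 181 and 212 CPM in the Hermes 3A libraries. Both melanoma libraries were below all of the melanocyte libraries, and among the latter replicate 1 was the lowest. The group means were 40.7 ± 3.19 CPM (SD, n = 2) and 157 ± 70.8 CPM (SD, n = 3), a 3.85-fold difference. The ratio of 501Mel to Hermes 3A was 0.260, and it was 0.207 without Hermes 3A replicate 1. In bulk RNA, fewer cells that transcribe these genes and less RNA per cell cannot be told apart.

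**Figure D1:**
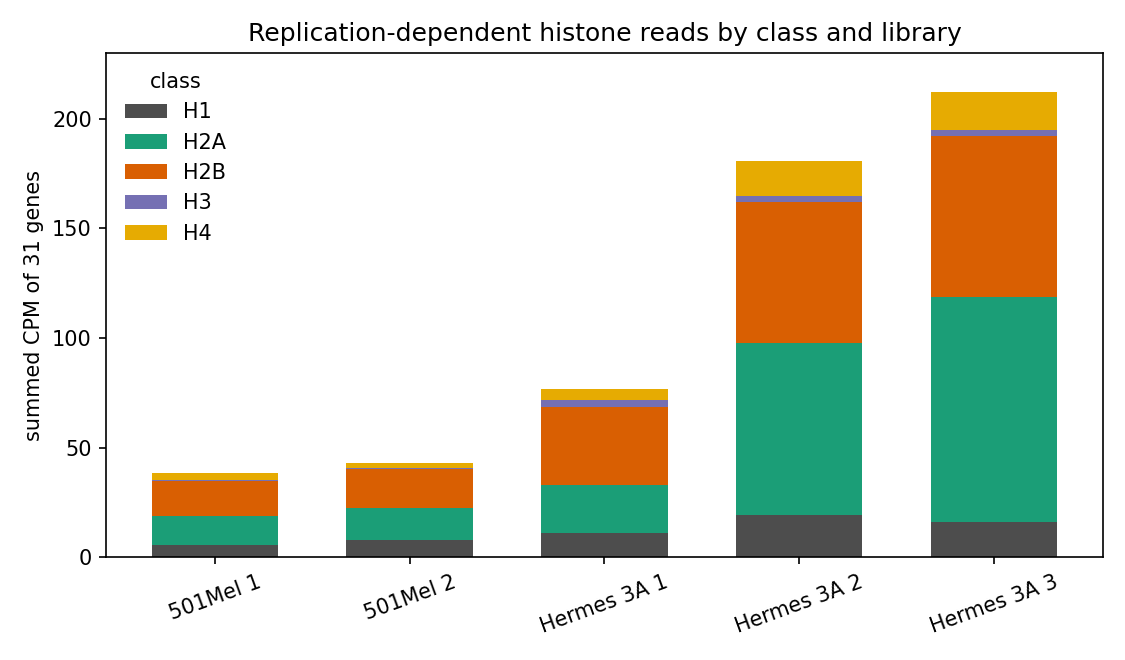
Summed CPM of the 31 replication-dependent histone genes (vertical axis) in each library (horizontal axis), stacked by histone class. The 501Mel bars reach 38.4 and 43.0 CPM, and the Hermes 3A bars reach 76.8, 181 and 212 CPM, mostly from H2A and H2B genes.

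Of these 31 genes, 20 had enough reads to be tested and 11 had not. The untested genes never exceeded 11 counts in a library, and 3 of them, HIST1H1A, HIST1H1T and HIST3H3, had no count at all. Of the genes tested, 12 were called lower in 501Mel at an adjusted p of 0.05 by edgeR and 0 were called higher, where 24.1% of all 17918 genes tested were called lower and 24.3% higher. DESeq2 also called 12 lower and 0 higher, where it called 4623 of all 17918 genes lower and 4257 higher. At an unadjusted p of 0.05 edgeR gave 15 lower and 0 higher. All 12 differed at least 2-fold, which with the call held for 34.3% of all genes in either direction. Both 501Mel libraries were below every Hermes 3A library for 15 of the 20, against 31.9% of all genes (69.9% did not overlap in either direction). The median log2 fold change of the 20 was -1.55, where that of all genes was 0.02. Of the 20, 6 reached the minimum for testing in Hermes 3A alone and none in 501Mel alone, so these counts describe the genes that could be tested and not the whole set. Over all 31 genes the mean CPM was lower in 501Mel for 23, higher for 5 and 0 in both lines for 3.

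Leaving out a library moved the number called. It was 5 without 501Mel replicate 1, 8 without 501Mel replicate 2, 10 without Hermes 3A replicate 2, 10 without Hermes 3A replicate 3 and 16 without Hermes 3A replicate 1. Without 501Mel replicate 1 the calls of HIST1H1C, HIST1H2AC, HIST1H2BD, HIST1H2BJ, HIST1H4H, HIST2H2BE and HIST3H2A were lost, with adjusted p between 0.0538 and 0.111. Without 501Mel replicate 2 the calls of HIST1H2BC, HIST1H2BD, HIST1H4H and HIST3H2A were lost, with adjusted p between 0.0684 and 0.125. HIST1H2BC and HIST1H2BD also lost their call without Hermes 3A replicate 2 or replicate 3, with adjusted p between 0.0501 and 0.0842. The fitted fold changes of all these genes kept their sign. Leaving out either 501Mel library left a single library in that group. Without Hermes 3A replicates 1, 2 and 3 in turn, 20, 19 and 19 replication-dependent genes were tested. Of all genes, 4687 of 17757 tested, 3588 of 17485 and 3543 of 17634 were called lower in the same fits.

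The H2A and H2B genes held most of these reads. HIST3H2A, an H2A gene of the small HIST3 cluster, was at 7.67 and 7.37 CPM in 501Mel and at 12.5, 57.3 and 79.9 CPM in Hermes 3A. The groups did not overlap, and replicate 1 of Hermes 3A lay nearer to the melanoma libraries than to the other melanocyte libraries. The log2 fold change was -2.77 ± 0.69 (SE) with an adjusted p of 0.0141, and it was -3.25 without that replicate. HIST1H2AC, an H2A gene of the main cluster on chromosome 6, was at 3.97 and 5.55 CPM in 501Mel and at 7.61, 19.3 and 20.8 CPM in Hermes 3A, again without overlap. Its log2 fold change was -1.79 ± 0.45 with an adjusted p of 0.0145. HIST1H2AG and HIST2H2AC, which also encode H2A, were not called (adjusted p = 0.659 and 0.137).

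All 9 H2B genes in the files could be tested, and 6 of them were called lower in 501Mel, beside 24.1% of all genes. Of the 9, HIST2H2BF and HIST3H2BB reached the minimum for testing in Hermes 3A alone. HIST2H2BE, whose mRNA can end in a poly(A) tail, was at 3.46 and 5.10 CPM in 501Mel and at 9.68, 28.97 and 33.5 CPM in Hermes 3A (log2 fold change -2.54 ± 0.53, adjusted p = 0.00691). Within Hermes 3A replicate 1 was again the lowest library. HIST2H2BF was lower by more, with 7 and 8 counts in 501Mel against 180, 156 and 117 in Hermes 3A, and here replicate 1 was the highest of its group. Its CPM was 0.163 and 0.211 against 4.32, 3.82 and 3.89, and its log2 fold change was -4.47 ± 0.45 (adjusted p = 0.000345). HIST1H2BK, the H2B gene with the most reads in 501Mel, differed least among those called, at 8.11 and 8.19 CPM against 14.2, 15.7 and 17.5 CPM (log2 fold change -1.02, adjusted p = 0.00724). HIST1H2BJ was at 0.581 and 0.713 CPM against 1.75, 4.99 and 7.22 CPM (log2 fold change -2.89, adjusted p = 0.00925). In each of these genes the groups did not overlap. HIST1H2BD was called at a log2 fold change of -1.36 (adjusted p = 0.0276) and HIST1H2BC at -1.68 (adjusted p = 0.0231).

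The H4 genes were fewer and lower. HIST1H4H was at 1.07 and 1.06 CPM in 501Mel and at 1.92, 9.57 and 9.44 CPM in Hermes 3A (log2 fold change -2.75 ± 0.70, adjusted p = 0.0154). HIST1H4J was at 0.232 and 0.264 CPM against 2.40, 3.60 and 3.59 CPM (log2 fold change -3.73 ± 0.45, adjusted p = 0.000775). The groups were apart for both genes, but for HIST1H4H the gap rested mostly on Hermes 3A replicates 2 and 3. HIST4H4, a lone H4 gene on chromosome 12, overlapped between the groups, at 1.58 and 0.951 CPM in 501Mel and at 0.552, 2.64 and 3.86 CPM in Hermes 3A. It was not called (log2 fold change -0.93 ± 0.74, adjusted p = 0.334), although without Hermes 3A replicate 1 its log2 fold change was -1.41 with an adjusted p of 0.0336. HIST1H4C never exceeded 11 counts and was not tested.

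H3 genes of this kind gave almost no reads. HIST2H3PS2, which carries a pseudogene symbol but is annotated as protein-coding, had 0 counts in both 501Mel libraries and 117, 54 and 58 counts in Hermes 3A. Its mean level in Hermes 3A was at least 27.1-fold higher than the 501Mel floor of 3 counts per library (adjusted p = 0.00105). HIST1H3D was at 0.395 and 0.264 CPM against 0.576, 1.05 and 0.931 CPM, and it missed the threshold (log2 fold change -1.41, adjusted p = 0.0501). HIST1H3J, HIST2H3D and HIST3H3 had at most 7 counts in a library.

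Of the 6 replication-dependent linker histone genes only HIST1H1C, which encodes H1.2, had more than 18 counts in any library. It was at 5.62 and 7.53 CPM in 501Mel and at 10.8, 18.9 and 15.8 CPM in Hermes 3A. The groups were separate, and the log2 fold change was -1.26 ± 0.30 with an adjusted p of 0.0119. HIST1H1E had 2 to 18 counts and was not called (adjusted p = 0.797).

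**Figure D2:**
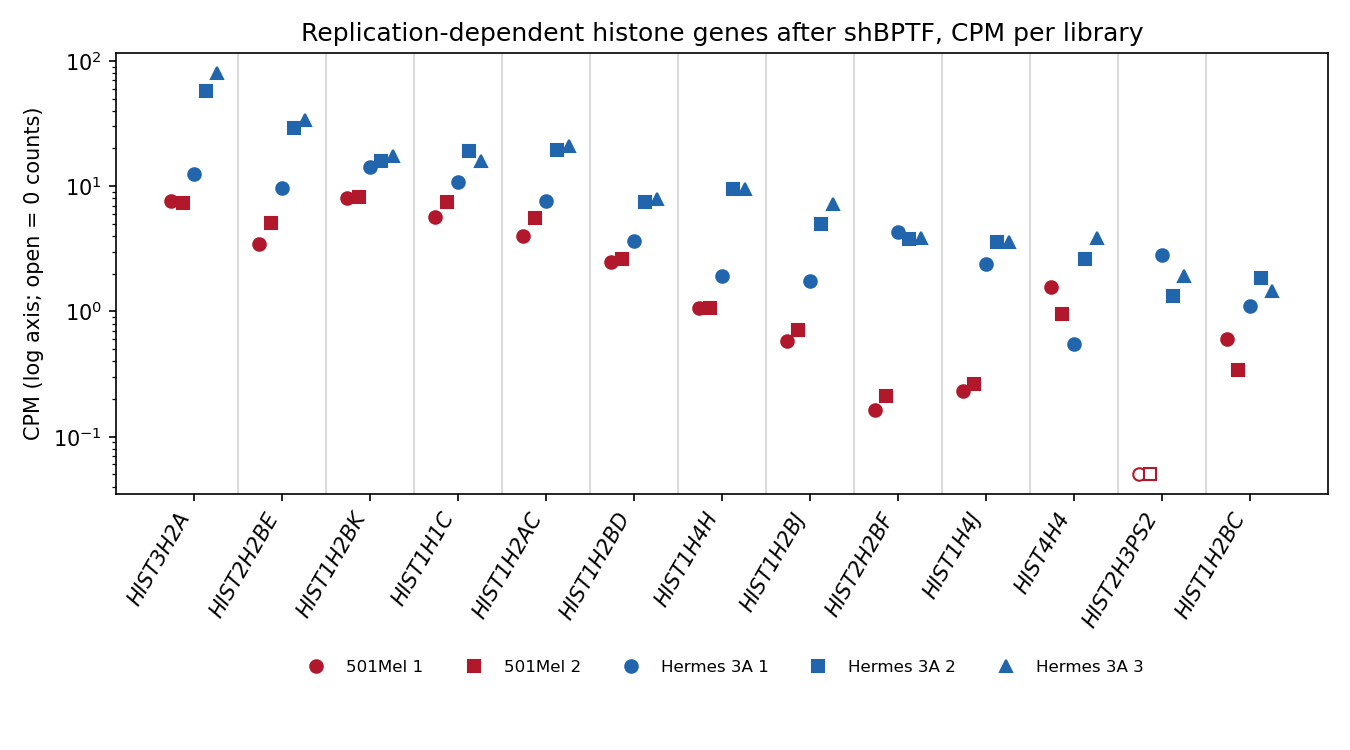
CPM on a log axis (vertical) of the 13 named replication-dependent histone genes (horizontal), with 1 point per library, red for 501Mel and blue for Hermes 3A, and open symbols at the foot for 0 counts. Apart from HIST4H4, the 501Mel points lie below the Hermes 3A points, and Hermes 3A replicate 1 is the lowest of its group for 11 of the 13 genes.

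Within Hermes 3A the genes did not vary alike. Replicate 1 was the lowest of the 3 libraries for 11 of the 13 named genes. Relative to replicate 1, HIST3H2A was 4.60-fold and 6.41-fold higher in replicates 2 and 3, and HIST1H4H was 4.98-fold and 4.92-fold higher. HIST1H2BK was 1.11-fold and 1.23-fold higher, and HIST2H2BF was 0.883-fold and 0.900-fold as high. Replicate 1 was the highest of its group for 17 of 25 S phase genes and the lowest for 6, and the summed S phase level was 685 CPM there and 601 and 654 CPM in replicates 2 and 3. The proliferation marker MKI67 was at 34.3, 5.92 and 24.0 CPM in Hermes 3A replicates 1 to 3, and the replication clamp PCNA was at 141, 176 and 177 CPM. The collagen gene COL1A2 was at 69.5, 180 and 187 CPM in the same libraries. The part of these differences in the histone values was not tested.

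The 3′ stem-loop of histone mRNAs is bound by SLBP, and cleavage just after it makes the end that replaces the poly(A) tail. The sequences below are from GENCODE 29 transcripts on GRCh38 and are shown because they are the element that sets these mRNAs apart from others. Capitals mark the 16-base stem-loop, and 5 bases are given on either side.
HIST3H2A: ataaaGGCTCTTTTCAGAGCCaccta
HIST1H2AC: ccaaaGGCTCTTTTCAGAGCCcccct
HIST2H2BE: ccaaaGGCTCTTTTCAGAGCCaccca
HIST2H2BF: ccaaaGGCTCTTTTCAGAGCCacttc
HIST1H4H: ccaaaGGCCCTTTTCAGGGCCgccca
HIST1H4J: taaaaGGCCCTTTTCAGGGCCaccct
H2AFX: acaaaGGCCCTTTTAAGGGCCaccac
After the stem-loop the annotated transcript continued for 390 bases in HIST3H2A, 1114 in HIST1H2AC, 1729 in HIST2H2BE, 1479 in HIST2H2BF and 630 in HIST1H4H, but for only 6 in HIST1H4J. H2AFX, a variant gene known to give both kinds of mRNA end, continued for 1044 bases.

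The stem-loop was present in an annotated coding transcript of 15 of the 31 replication-dependent genes (48.4%), of 1 of the 11 variant genes and of 29 of 16720 protein-coding genes in the files (0.173%). Several annotated transcripts end at the stop codon and so cannot hold it. Genes with it summed to 23.0 and 25.1 CPM in 501Mel and to 45.5, 137 and 167 CPM in Hermes 3A. Genes without it summed to 15.5 and 17.9 CPM and to 31.3, 43.4 and 45.1 CPM. Both sets were lower in every 501Mel library, with 8 of 13 and 4 of 7 tested genes called lower, beside 24.1% of all genes. Some of the tested genes reached the minimum for testing in Hermes 3A alone. These were HIST1H4J, HIST2H2BF and HIST3H2BB with the stem-loop, and HIST1H1E, HIST2H2AC and HIST2H3PS2 without it.

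A list of 5 genes known to give polyadenylated forms, HIST1H1C, HIST1H2AC, HIST1H2BD, HIST1H2BK and HIST2H2BE, was drawn from general knowledge and not from the annotated lengths above, which also run past the stem-loop in genes outside it. All 5 were called lower in 501Mel, beside 24.1% of all genes (median log2 fold change -1.36). They summed to 23.7 and 28.98 CPM in 501Mel and to 45.9, 90.3 and 95.5 CPM in Hermes 3A. They thus held more than the other 26 genes together in 501Mel, which summed to 14.8 and 14.0 CPM there and to 30.9, 90.3 and 117 CPM in Hermes 3A. Among the other 26 genes 7 of 15 tested were called lower, beside 24.1% of all genes. All 6 replication-dependent genes that reached the minimum for testing in Hermes 3A alone are among these 15, which thus lean towards lower values. The ratio of 501Mel to Hermes 3A over those 26 genes was 0.181.

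The low levels bear on what these libraries measured. The samples are labelled total RNA, which would hold mRNAs without a poly(A) tail, yet 12 of the 31 replication-dependent genes had a mean under 10 counts. Of 8 other RNAs without a tail, only RNU7-1, the U7 snRNA of histone 3′ processing, was matched, and it was at 0 to 0.245 CPM. How fully RNA without a tail was recovered could therefore not be checked. Replication-dependent genes of a class also share nearly identical coding sequences, so reads may have been divided among copies or dropped, and the values of single genes are uncertain to that extent.

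Promoters of these genes share short motifs. The 250 bases before the RefSeq start (GRCh38.p14) were found for 28 of the 31 replication-dependent genes and for 9 of the 11 variant genes. H1F0, H3F3C, HIST1H3J, HIST1H4C and HIST2H3PS2 had no entry. Motifs were sought on both strands. HIST1H2AD and HIST1H3D have the same window, and genes that lie head to head have windows that overlap almost fully. A motif in such a window was counted for both genes, so the 28 are not separate stretches of DNA. The CCAAT box (CCAAT), bound by NF-Y, was in 25 of 28 replication-dependent and 6 of 9 variant promoters, against 33.0% of all 27305 promoters. The TATA box (TATAAA) was in 18 of 28 and 4 of 9, against 11.1%. The H1 box (AAACACA) was in 6 of 28, which were those of the 6 linker histone genes, and in 0 of 9, against 4.95%. The CHR element (TTTGAA), found in cell cycle promoters, was in 9 of 28 and 1 of 9, against 13.6%. None of these motifs is contained in another.

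The promoters of 3 genes that were called lower in 501Mel are shown as an H2B, an H1 and an H4 example, each written along the gene's own strand up to the base before its start. Capitals mark the motifs above on either strand.
HIST2H2BE, chr1:149886683-149886932, minus strand: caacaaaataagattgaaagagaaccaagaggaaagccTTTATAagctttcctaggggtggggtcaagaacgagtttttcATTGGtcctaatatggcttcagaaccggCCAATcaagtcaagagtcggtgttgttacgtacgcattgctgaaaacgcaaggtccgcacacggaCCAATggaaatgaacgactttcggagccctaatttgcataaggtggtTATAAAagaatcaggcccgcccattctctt
HIST1H1C, chr6:26056471-26056720, minus strand: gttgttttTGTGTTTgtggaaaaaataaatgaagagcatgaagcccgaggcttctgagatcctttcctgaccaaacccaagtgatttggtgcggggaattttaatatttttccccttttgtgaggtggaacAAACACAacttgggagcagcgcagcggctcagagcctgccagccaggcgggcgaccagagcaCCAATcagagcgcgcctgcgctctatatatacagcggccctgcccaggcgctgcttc
HIST1H4J, chr6:27823842-27824091, plus strand: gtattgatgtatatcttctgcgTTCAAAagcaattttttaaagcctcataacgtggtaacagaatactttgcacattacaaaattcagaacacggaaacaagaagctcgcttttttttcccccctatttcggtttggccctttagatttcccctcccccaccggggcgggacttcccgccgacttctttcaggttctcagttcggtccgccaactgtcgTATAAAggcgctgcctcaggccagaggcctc
The first holds CCAAT and TATA boxes, the second a CCAAT box with the H1 box, and the third a TATA box with the CHR element but no CCAAT box.

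Several replication-dependent genes lie head to head with another, and 5 such pairs were in the files. In Hermes 3A, HIST3H2A was at 55.8 CPM per kb of transcript and HIST3H2BB, 234 bases away, at 0.121. HIST2H2BE was at 11.0 CPM per kb and HIST2H2AC, 323 bases away, at 1.63. HIST1H2BJ was at 11.4 and HIST1H2AG, 292 bases away, at 0.449. The size of these gaps depends on the annotated lengths, which were 0.408 kb for HIST1H2BJ and 2.25 kb for HIST1H2AG. Without scaling by length, the mean CPM in Hermes 3A was 49.9 and 0.285 for HIST3H2A and HIST3H2BB. It was 24.1 and 0.635 for HIST2H2BE and HIST2H2AC, and 4.65 and 1.01 for HIST1H2BJ and HIST1H2AG. In each of these pairs the higher gene was called lower in 501Mel and the other was not called, and the difference between partners was not tested. The partners not called had at most 44 counts in a library. Their fitted log2 fold changes were -2.83 ± 1.18 (SE) for HIST3H2BB, -1.01 ± 0.50 for HIST2H2AC and -0.23 ± 0.39 for HIST1H2AG. HIST3H2BB had 0 and 3 counts in 501Mel and 3, 13 and 14 in Hermes 3A. In the pair of HIST1H2BC and HIST1H2AC, 219 bases apart, both genes were called. In the remaining pair HIST1H2BL was at 0.889 and HIST1H2AI, 268 bases away, at 0.310 CPM per kb in Hermes 3A, and HIST1H2AI was not tested.

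Variant histone genes held most of the reads of the matched histone genes in both lines. They summed to 1321 and 1527 CPM in 501Mel and to 1227, 1407 and 1555 CPM in Hermes 3A, so that the groups overlapped and the ratio of their means was 1.02. The replication-dependent share of the reads of the 42 matched genes was 2.83% and 2.74% in 501Mel and 5.89%, 11.4% and 12.01% in Hermes 3A. Of the 11 variant genes, all of which were tested, 4 were called higher in 501Mel (H2AFZ, H2AFV, H2AFX and H2AFY) and 3 lower (H1F0, H2AFJ and H2AFY2). These are 36.4% and 27.3% of the variants, beside 24.3% and 24.1% of all genes, and the median log2 fold change was 0.14. H1F0 and H2AFJ reached the minimum for testing in Hermes 3A alone.

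**Figure D3:**
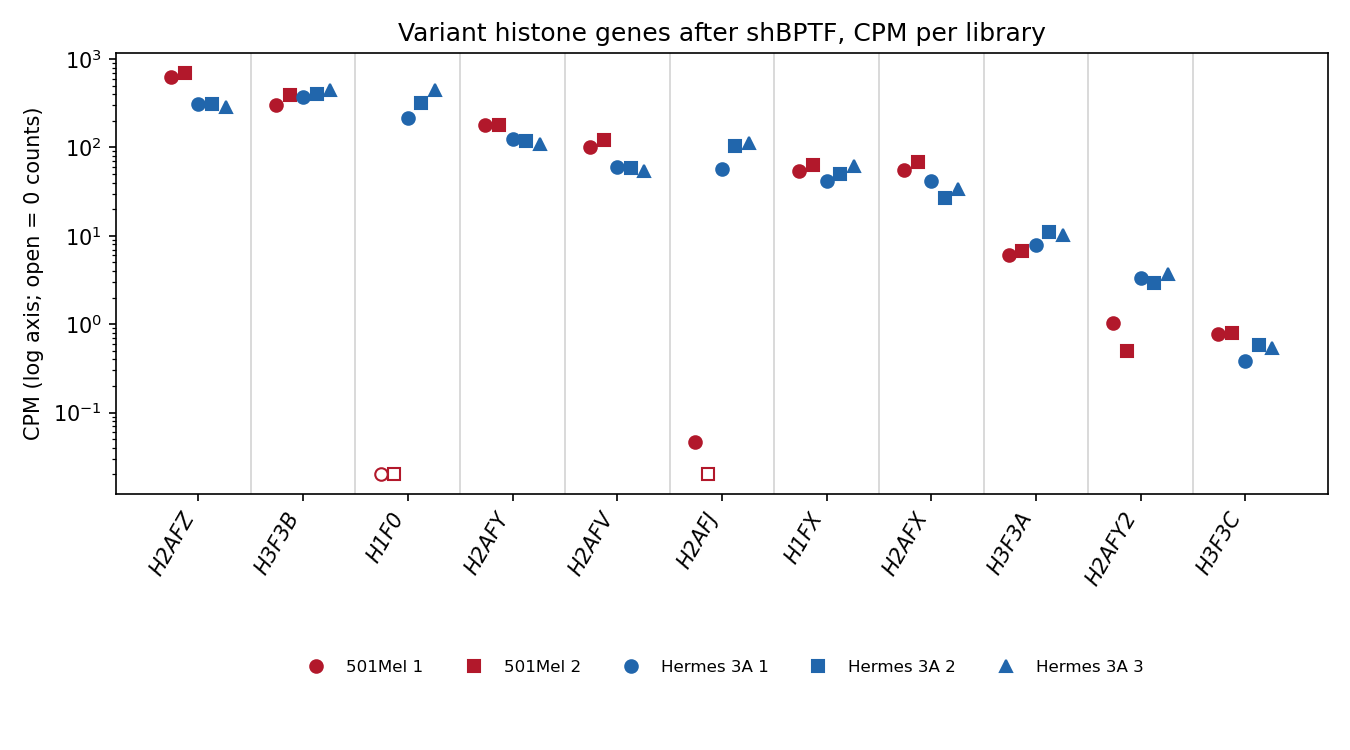
CPM on a log axis (vertical) of the 11 variant histone genes (horizontal), with 1 point per library, red for 501Mel and blue for Hermes 3A, and open symbols at the foot for 0 counts. H1F0 has no count in either 501Mel library and lies at 215 to 442 CPM in Hermes 3A, and H2AFJ shows the same pattern with 2 counts in a single 501Mel library.

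H1F0 and H2AFJ were abundant in Hermes 3A and near absent from 501Mel. H1F0 encodes H1.0, the linker histone that accumulates in differentiated and non-dividing cells, and lies on chromosome 22 (37805093 to 37807436, GRCh38). It had 0 counts in both 501Mel libraries and 8962, 13018 and 13304 counts in Hermes 3A, or 215, 319 and 442 CPM. The gene is listed in the files of both lines. The files of the lines differ in the genes they list, with 6230 listed for 501Mel alone and 3004 for Hermes 3A alone, and whether H1F0 and H2AFJ were annotated alike in both counting runs was not tested. The mean Hermes 3A level was at least 4369-fold higher than the 501Mel floor of 3 counts per library (adjusted p = 4.36e-05). The neighbouring gene GCAT, which begins 469 bases away and encodes an enzyme of threonine breakdown, had 1097 and 1021 counts in 501Mel and 665, 416 and 214 in Hermes 3A. Farther away, LGALS1 had 3392 and 633 counts in 501Mel and 25390, 23759 and 17874 in Hermes 3A.

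H2AFJ encodes H2A.J, an H2A variant that lies on chromosome 12 (14774383 to 14778002) and is known to accumulate in senescent fibroblasts. It had 2 and 0 counts in 501Mel and 2374, 4241 and 3347 in Hermes 3A, or 57.0, 104 and 111 CPM. The ratio of pooled rates, Hermes 3A over 501Mel, was 3579 with an exact 95% interval of 990 to 29553 that covers counting error only (adjusted p = 3.22e-05). HIST4H4, 3252 bases from H2AFJ, had 68 and 36 counts in 501Mel, and WBP11, 6577 bases away, had 7050 and 4052.

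The counted linker histone reads were made up differently in the cell lines. The difference rests on H1F0, and whether that gene was annotated alike in both counting runs was not tested. H1F0 held 0% of the H1 reads in both 501Mel libraries and 80.2%, 82.0% and 85.1% in Hermes 3A. H1FX, which encodes H1.10, held 90.4% and 88.6% in 501Mel and 15.6%, 13.0% and 11.8% in Hermes 3A. H1FX itself was at 54.8 and 63.1 CPM in 501Mel and at 41.9, 50.5 and 61.3 CPM in Hermes 3A. These values overlapped, and H1FX was not called (log2 fold change 0.14 ± 0.18, adjusted p = 0.543). HIST1H1C supplied most of the rest, at 9.27% and 10.6% of H1 reads in 501Mel and 3.03% to 4.87% in Hermes 3A.

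Both genes for H2A.Z, a variant placed at promoters and regulatory elements, were higher in 501Mel. H2AFZ was at 624 and 694 CPM in 501Mel and at 306, 309 and 286 CPM in Hermes 3A (log2 fold change 1.07 ± 0.15, adjusted p = 0.00122). H2AFV was at 101 and 122 CPM against 59.6, 58.3 and 53.6 CPM (log2 fold change 0.90 ± 0.15, adjusted p = 0.00276). For both genes every 501Mel library was above every Hermes 3A library, which held for 38.0% of all genes tested. Together they summed to 725 and 816 CPM against 366, 368 and 340 CPM, which is 2.15-fold. H2AFZ made up 64.1% and 64.3% of the reads of the 13 matched H2A genes in 501Mel and 50.0%, 44.3% and 40.8% in Hermes 3A. These totals include H2AFJ, whose annotation in both counting runs was not tested.

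H2AFX encodes H2A.X, whose phosphorylated form marks DNA breaks. It was at 55.0 and 68.5 CPM in 501Mel and at 41.6, 26.7 and 33.6 CPM in Hermes 3A (log2 fold change 0.79 ± 0.24, adjusted p = 0.0276). The groups were separate, but the call was lost without 501Mel replicate 2 (adjusted p = 0.162), Hermes 3A replicate 2 (0.0917) or Hermes 3A replicate 3 (0.0980). Unlike HIST3H2A or HIST2H2BE, it was highest within Hermes 3A in replicate 1.

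The macroH2A genes, whose products carry a large additional domain and are linked to silent chromatin, went in opposite directions. H2AFY, which encodes macroH2A1, was at 180 and 180 CPM in 501Mel and at 123, 118 and 110 CPM in Hermes 3A (log2 fold change 0.55 ± 0.13, adjusted p = 0.0123). Its call too was lost without 501Mel replicate 2 (adjusted p = 0.0614), Hermes 3A replicate 2 (0.0804) or Hermes 3A replicate 3 (0.0812). H2AFY2, which encodes macroH2A2, was at 1.02 and 0.502 CPM against 3.36, 2.94 and 3.72 CPM (log2 fold change -2.19 ± 0.45, adjusted p = 0.00672). Per kb of transcript H2AFY exceeded H2AFY2 in both lines, at 96.8 against 0.528 CPM per kb in 501Mel and at 63.0 against 2.31 in Hermes 3A.

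The genes for H3.3, the H3 variant that is deposited outside replication, were not called. H3F3B was at 298 and 391 CPM in 501Mel and at 371, 407 and 442 CPM in Hermes 3A, which overlapped (log2 fold change -0.30 ± 0.18, adjusted p = 0.197). H3F3A was at 6.02 and 6.71 CPM against 7.78, 11.2 and 10.2 CPM, without overlap (log2 fold change -0.67 ± 0.26, adjusted p = 0.0726). H3F3A passed the threshold without Hermes 3A replicate 1 (adjusted p = 0.0339) and with DESeq2 (adjusted p = 0.0168). H3F3C, a copy of H3F3B without introns, is listed in RefSeq as H3-5 and is not itself an H3.3 gene. It had 16 to 33 counts per library and was not called (adjusted p = 0.295 by edgeR). H3F3B held 96.6% to 98.0% of the reads of the 8 matched H3 genes over the 5 libraries. The H3F3A and H3F3B proteins are identical and many processed copies of both genes exist, so the split of reads between them depends on how multiply mapped reads were counted, which is not given in the sources used here.

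Per kb of transcript, using the median length of coding transcripts in GENCODE 29, the order of the variants in 501Mel was H2AFZ (673 CPM per kb), H3F3B (594), H2AFV (170), H2AFY (96.8), H1FX (39.1) and H2AFX (38.3). In Hermes 3A it was H3F3B (700 CPM per kb), H2AFZ (307), H2AFJ (141), H1F0 (139), H2AFV (86.9), H2AFY (63.0) and H1FX (34.0). H2AFZ and H3F3B in 501Mel, H1FX and H2AFX in 501Mel, and H2AFJ and H1F0 in Hermes 3A were neighbours whose values differed by less than their spread between libraries. The highest replication-dependent gene per kb was HIST1H2BK in 501Mel (21.4) and HIST3H2A in Hermes 3A (55.8). These orders depend on the length used. H3F3B and H2AFV have 8 coding transcripts each, with medians of 0.581 and 0.6575 kb but longest transcripts of 2705 and 3804 bases. With a longer length both would stand lower.

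Genes that transcribe and process histone mRNAs did not, as a list, share the direction of the replication-dependent genes. Of 22 such genes, 10 were called higher in 501Mel and 0 lower, beside 24.3% and 24.1% of all genes, with a median log2 fold change of 0.45. DESeq2 gave the same numbers, and at an unadjusted p of 0.05 edgeR gave 11 higher and 1 lower, which was NPAT. SLBP, which binds the stem-loop, was at 102 and 82.9 CPM in 501Mel and at 57.2, 54.3 and 53.3 CPM in Hermes 3A (log2 fold change 0.68, adjusted p = 0.00761). CASP8AP2, a component of the bodies in which histone genes are transcribed, was at 46.5 and 36.9 CPM against 19.0, 16.8 and 18.7 CPM (log2 fold change 1.13, adjusted p = 0.00239). For both genes every 501Mel library was above every Hermes 3A library, which held for 38.0% of all genes tested. NPAT, the activator of histone gene transcription, was at 45.9 and 43.3 CPM against 56.1, 50.6 and 57.5 CPM, so that every 501Mel library was below. It was not called (log2 fold change -0.36, adjusted p = 0.0806 by edgeR). HINFP of the same list also had a value below 0 and was not called (log2 fold change -0.53, adjusted p = 0.151 by edgeR). The U7 snRNP proteins LSM10 and LSM11 were not called either (adjusted p = 0.453 and 0.605).

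Histone chaperones were higher in 501Mel for the most part. Of 24 genes for chaperones and variant exchange, 19 were called higher and 0 lower, beside the same shares of all genes, with a median log2 fold change of 1.32. DESeq2 gave 19 and 0 as well, and at an unadjusted p of 0.05 edgeR gave 22 higher and 0 lower. The subunits of the replication-coupled chaperone CAF-1, CHAF1A and CHAF1B, had log2 fold changes of 2.37 and 2.28, and ASF1B, which hands H3 and H4 to it, had 3.82 (adjusted p = 0.000905). NASP, which holds the soluble pool of H3 and H4, was at 295 and 217 CPM in 501Mel and at 51.9, 42.9 and 36.4 CPM in Hermes 3A (log2 fold change 2.48, adjusted p = 0.000185). For H2A.Z, the deposition factors VPS72 and SRCAP had log2 fold changes of 0.97 and 0.96, and ANP32E, which removes it, had 2.14 (adjusted p = 4.65e-05). For H3.3, HIRA had a log2 fold change of 0.76 and DAXX and ATRX had 1.38 and 1.35. The centromeric H3 variant CENPA and its chaperone HJURP had log2 fold changes of 2.86 and 3.22.

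S phase genes stood opposite to the replication-dependent histone genes. All 25 genes of the list were called higher in 501Mel, beside 24.3% of all genes, with a median log2 fold change of 2.95, and they summed to 3656 and 2946 CPM in 501Mel and to 685, 601 and 654 CPM in Hermes 3A. The helicase subunit MCM2 was at 129 and 164 CPM against 19.1, 12.8 and 13.2 CPM (log2 fold change 3.21, adjusted p = 0.00012). The 12 replication-dependent histone genes called in the same fit were all lower, and no tested gene of theirs had a fitted value above 0. Of the 20 tested, however, 6 reached the minimum for testing in Hermes 3A alone and 0 in 501Mel alone. The tested genes thus lean towards values below 0, and over all 31 genes 5 had a higher mean CPM in 501Mel. After BPTF silencing the paper reported staining for senescence-associated β-galactosidase in cells of both lines. The share of dividing or senescent cells behind these libraries was not tested.

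**Figure D4:**
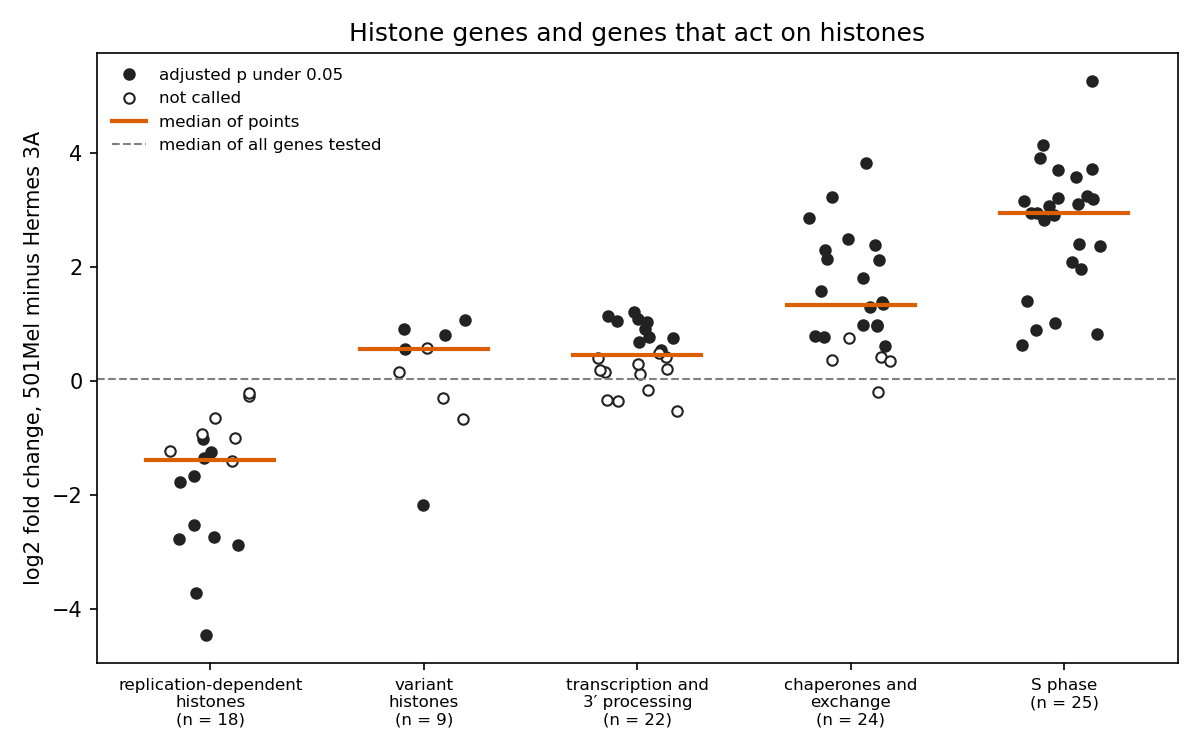
Log2 fold change, 501Mel minus Hermes 3A (vertical axis), of the tested genes of 5 lists (horizontal axis), leaving out members with 3 or fewer counts over both 501Mel libraries. Filled points were called at an adjusted p of 0.05, orange lines are the medians of the plotted points, and the dashed line is the median of all genes tested at 0.02. The 18 replication-dependent histone genes plotted have a median of -1.39 and all lie below 0, whereas the 25 S phase genes have a median of 2.95 and all lie above it. Some of the 18 reached the minimum for testing in Hermes 3A alone and none in 501Mel alone.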

How the data were processed

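The authors deposited raw read counts per gene, as whole numbers with Ensembl identifiers and no normalization, for 5 libraries. The submitters' processing notes name CASAVA 1.8, TopHat 1.4.1, Bowtie 0.12.7 and hg19. The counting program, annotation release and strand setting are not given in the sources used here. The files of the 2 cell lines list different genes, so the 31029 listed in both were used. Members and gene lists were chosen with earlier results of these data known. Named genes were every variant, the 12 called HIST genes of largest change without overlap, the 12 of highest CPM and those with polyadenylated forms.

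Groups were compared with edgeR 4.0.16 in R 4.3.3 (quasi-likelihood test, TMM, filterByExpr, Benjamini-Hochberg adjustment over 17918 genes), and DESeq2 1.42.0 was an alternative. CPM used the total counts of each file. Positive log2 fold changes mean higher in 501Mel. Both tools were tested on simulated data. Nothing in the labels says that replicates came from separate cultures, so p-values cover the spread between these libraries, which may be technical. Interval and floor values cover counting error only. Symbols, coordinates and transcript lengths came from GENCODE 29 and promoters from RefSeq (GRCh38.p14).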

Additional observations from a re-analysis of the deposited data

How the results depend on the processing

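With a 2-fold minimum added, the histone genes called higher in 501Mel fell to 1, and the variants called higher likewise to 1. Leaving out each library in turn gave 2 to 4 histone genes called higher and 8 to 20 called lower, 5 to 16 replication-dependent genes called lower, 2 to 4 variants called higher, and 2871 to 4595 of all genes called higher. Of all genes, 3543 to 4687 were called lower when a Hermes 3A library was left out. The cause of these shifts was not tested. The summed replication-dependent ratio was between 0.207 and 0.316 when a library was left out. Of 24 named genes, 12 kept their call under every alternative, and over 240 alternatives no sign of a called gene reversed. The groups share 2 replicate numbers, and same-numbered libraries had correlations of 0.105 and 0.121 between their deviations, but the labels tie the number to no shared source, so the libraries share only a number. With a replicate block, 16 histone genes and 7496 of all genes were called, and H2AFY (adjusted p = 0.0548), HIST1H2BC (0.0596) and HIST1H2BD (0.0843) were not. The 11 untested genes, with at most 11 counts in a library, could not be compared.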
